A study of Homo sapiens with 4 samples.

Results

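FGFR3 and 4 genes that report or restrain signalling downstream of it, DUSP4, ETV4, ETV5 and SPRED2, were followed in LP-1, a human cell line established from multiple myeloma, after knockdown of the chromatin reader HRP2. The members were picked by symbol, and all 5 were among the 684 genes of the authors' deposited gene table, while 2 of them, FGFR3 and DUSP4, were also in the deposited table of 1040 transcripts. The genes were grouped with the direction of their change in this comparison known, so the values below describe them and are not a test of the group. The study compared 2 RNA-seq libraries of HRP2 knockdown cells with 2 of non-target control cells, both made with lentiviral guide RNA constructs and grown in 1640 medium with serum. The labels do not say whether the guide RNA cut or repressed its gene, whether a clone was picked, or whether a group's libraries stem from different cultures. The spread behind the Q values may therefore be technical. The series title places the line in t(4;14) myeloma, in which FGFR3 and NSD2 on chromosome 4 come under the control of the immunoglobulin heavy chain locus.

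FGFR3 is a receptor tyrosine kinase for fibroblast growth factors. Once bound by ligand or overexpressed it signals through adaptor proteins to RAS, RAF, MEK and ERK, and ERK then raises the transcription of a set of genes that includes its own brakes. Dual-specificity phosphatases such as DUSP4 remove phosphate from ERK in the nucleus, SPRED proteins hold RAS in check by recruiting neurofibromin, and the PEA3 transcription factors ETV1, ETV4 and ETV5 are widely used as readouts of FGF and ERK activity. The protein or phosphorylation of none of these was measured here.

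Upstream sequences were looked up to show what lies in front of genes that were lower together. RefSeq windows for GRCh38.p14 were matched for 2 of the 5 members, FGFR3 with 1 start and SPRED2 with 2, and the 250 bases before the start are printed for FGFR3 and for the SPRED2 start with the higher GC content. Capitals mark GGAA or its reverse complement TTCC, the core bound by ETS factors, the family to which ETV4 and ETV5 belong.
FGFR3, chr4:1793043-1793292, plus strand: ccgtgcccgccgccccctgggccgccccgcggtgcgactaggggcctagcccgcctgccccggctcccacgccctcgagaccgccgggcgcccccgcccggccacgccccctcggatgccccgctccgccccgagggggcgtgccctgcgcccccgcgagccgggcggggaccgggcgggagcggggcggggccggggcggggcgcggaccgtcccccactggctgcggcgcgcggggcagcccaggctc
SPRED2, chr2:65432600-65432849, minus strand: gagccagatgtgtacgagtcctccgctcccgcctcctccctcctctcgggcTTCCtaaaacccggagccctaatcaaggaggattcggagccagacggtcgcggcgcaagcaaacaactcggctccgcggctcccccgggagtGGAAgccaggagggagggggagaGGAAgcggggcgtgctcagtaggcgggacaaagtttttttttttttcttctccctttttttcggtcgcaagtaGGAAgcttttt

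The 2 windows differed. The FGFR3 window held no GGAA on either strand, whereas 92.7% of 35116 windows of the same length held at least 1, and the SPRED2 window held 4. GC content was 86.8% in the FGFR3 window, above 99.8% of all windows, and 58.8% in the SPRED2 window, next to a median of 58%. The other SPRED2 start had 39.2% GC and 5 GGAA matches. None of these windows held CCGGAA (14.5% of windows did), the AP-1 motif TGANTCA (6.57%) or the cyclic AMP response element TGACGTCA (1.65%), each searched on both strands. A match or its absence describes these letters only.

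The targeted gene was checked before the members. HDGFL2, which encodes HRP2, stood at 0.388 times the control level in the authors' deposited gene table, a log2 fold change of -1.37 with Q = 2.99e-13, and at 0.396 times in their transcript table (-1.34, Q = 0.0203). The label and the targeted gene therefore point the same way. No measurement of a single library entered the values below, so none has an SD, overlap between the groups cannot be read, and sequencing depth is unknown. In these bulk libraries, fewer cells with a transcript and less of it per cell cannot be told apart.

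All 5 members were lower in the knockdown, at 0.422 to 0.474 times the control level, and the median of their log2 fold changes from the authors' deposited table was -1.14. Of all 684 genes there, 47.2% were lower and 52.8% higher, and the median was 0.47. Since the members were chosen from this contrast, nothing is read from the difference. Of the 24237 mRNA genes the authors name, 2.81% are in the table at all, so a gene outside it has no value and is not shown to be unchanged.

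FGFR3 (gene ID 2261, chromosome 4), the receptor, fell to 0.455 times the control level in the authors' deposited gene table, a log2 fold change of -1.14 with Q = 8.73e-08. By Q value it ranked 16 of 684, ahead of the other members, although by size of decrease it ranked 65. DUSP4 (1846, chromosome 8), the nuclear ERK phosphatase, had the largest decrease of the 5, to 0.422 times control in the authors' deposited table (-1.24 on the log2 scale, Q = 1.01e-06). SPRED2 (200734, chromosome 2), the RAS inhibitor, was at 0.461 times control there (-1.12, Q = 0.00252). The receptor and both inhibitors, on 3 different chromosomes, were thus all below 0.5 times control.

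The PEA3 transcription factors followed the same direction. ETV4 (2118, chromosome 17) was at 0.442 times control (-1.18 on the log2 scale, Q = 0.00778) and ETV5 (2119, chromosome 3) at 0.474 times (-1.08, Q = 0.000529) in the authors' deposited table. ETV1, the third gene of this subfamily and not one of the 5 members, was at 0.48 times control (-1.06, Q = 0.0114). All 3 PEA3 genes were therefore in the table and lower, but ETV4 and ETV5 were chosen with this known. The decrease of ETV1 was slightly smaller than that of ETV5. Among the 7 genes the authors name with an ETV symbol, the other 4 were not in the table. Of all named mRNA genes 2.81% were in the table, and 47.2% of its genes were lower, so nothing is read from this count.

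**Figure D1:**
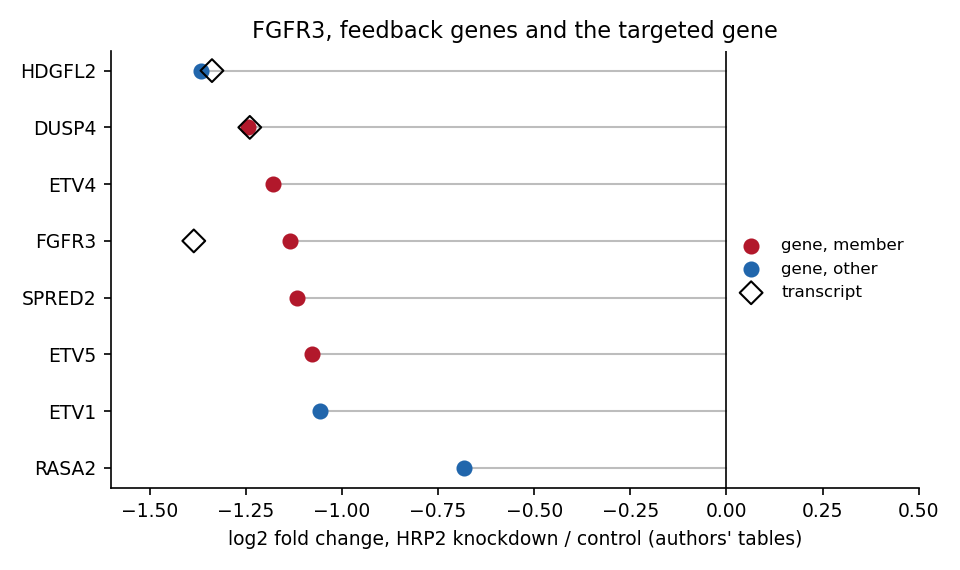
Log2 fold change of knockdown over control for each gene named on the vertical axis, from the authors' tables. Filled points are genes (red for the 5 members) and open diamonds are listed transcripts; the 5 members lie between -1.24 and -1.08, and the FGFR3 transcript at -1.39 lies left of its gene.

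The members had a narrow range of fold changes and a wide range of Q values. Their log2 fold changes spanned 0.17 (SD 0.064 over the 5 genes, which is a spread between genes and not between libraries), while their Q values ran from 8.73e-08 to 0.00778. Lower genes as a whole had a median of -0.78, and 91 of the 323 (28.2%) were at -1 or below, which is 13.3% of the table. Each member was in that group, by the values that chose them. Between DUSP4 and ETV5 the table held 19 further genes, with Q values from 1e-07 to 0.0419 and a median of 0.0144. FGFR3 thus had a smaller Q value than any of the genes in this interval.

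**Figure D2:**
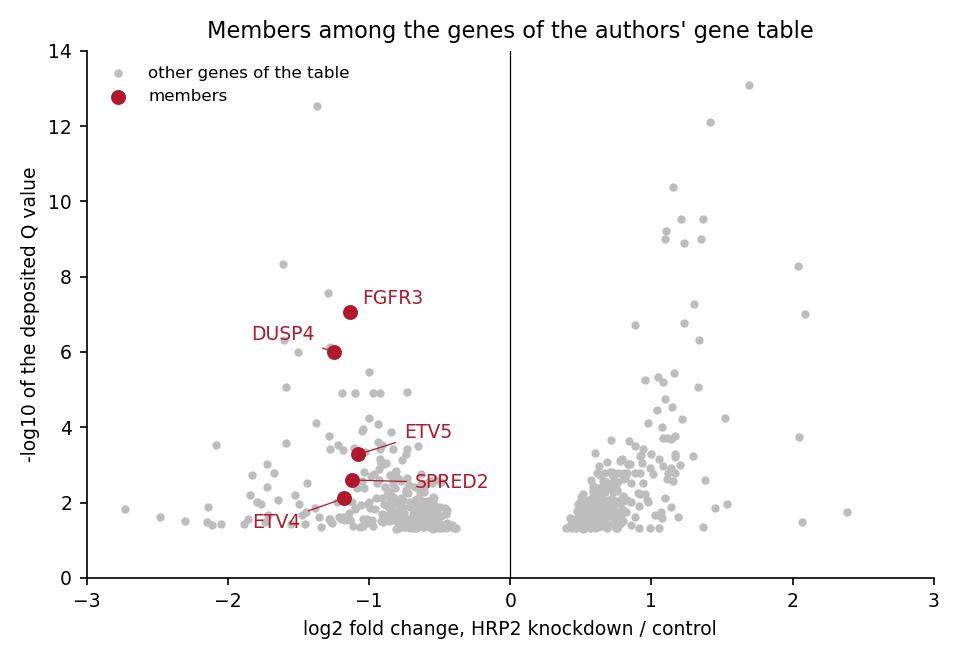
Log2 fold change (horizontal) against -log10 of the deposited Q value (vertical) for the genes of the authors' gene table, with 9 genes beyond the horizontal range not drawn. The 5 members (red) share a narrow range of fold change, and FGFR3 and DUSP4 stand above ETV5, SPRED2 and ETV4 in -log10 Q.

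The genes closest to FGFR3 in log2 fold change were SPRED2 and IDNK on the side of smaller decreases and IRF7 and OSGIN1 on the side of larger ones. IRF7, an interferon regulatory factor, was at -1.14 (Q = 0.0288) and OSGIN1, a gene of the oxidative stress response, at -1.14 (Q = 0.0184) in the authors' deposited table, and IDNK, a gluconokinase, was at -1.12 (Q = 0.00996). With 1 comparison this likeness is a single fold change, not a pattern over samples.

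At the transcript level FGFR3 and DUSP4 were each represented by 1 transcript. NM_000142.4, the FGFR3 transcript that encodes the IIIc form of the receptor, stood at 0.383 times control in the authors' deposited transcript table (-1.39 on the log2 scale, Q = 0.0197), and the transcript value minus the gene value was -0.25 on the log2 scale. NM_001394.6 of DUSP4 was at -1.24 (Q = 0.0193), and minus its gene value the difference was 0.00547. Both Q values were far larger than at the gene level, and 49.0% of all entries in the transcript table were lower. RefSeq lists 18 FGFR3 transcripts, predicted ones included, and 2 for DUSP4, so the remaining forms have no value here. No transcript of ETV4, ETV5, SPRED2 or ETV1 was in the table.

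The rest of the pathway was mostly outside the gene table. In 4 lists covering ligands and receptors, the relay from adaptors to ERK, inhibitors, and ERK-regulated genes with the ETS and SRF factors that act beside them there were 95 genes, 90 of them not members. Of these 90, 2 (2.22%) were in the authors' table, set against 2.81% of all named mRNA genes, and both were lower. They were ETV1 and RASA2, a RAS GTPase-activating protein, which the authors' deposited table puts at 0.623 times control (-0.68 on the log2 scale, Q = 0.0228). With the members included, 7 of the 95 were in the authors' table. Because the members were chosen from that table, leaving them out lowers the share and keeping them raises it. Nothing is read from either share, and both depend on which genes the lists hold. DAB2IP, FOSL2, IRS2 and JUND, related genes outside the lists that were noticed after their values were seen, were also lower in the authors' deposited table, at 0.410 to 0.499 times control.

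By role, FGFR3 was the only 1 of 15 ligands and receptors with a value, and the receptors FGFR1, FGFR2 and FGFR4 had none as genes. None of 30 relay genes was in the authors' gene table, among them the adaptor genes FRS2 and GRB2 and the MEK genes MAP2K1 and MAP2K2. Of 24 inhibitors, DUSP4, SPRED2 and RASA2 were lower and none was higher. Others that are usually read as ERK feedback, DUSP6, SPRY2, SPRY4 and SPRED1, were not in the table. Of 26 genes on the ERK-regulated list the 3 PEA3 genes were lower. The immediate early genes EGR1 and FOS, as well as FOSL1, CCND1 and PHLDA1, had no value. FGFR3, DUSP4, SPRED2, ETV4 and ETV5 were chosen with this direction known, which leaves RASA2 and ETV1. Of all named mRNA genes 2.81% were in the table, and 47.2% of its genes were lower. Because genes that missed the authors' threshold are absent, their direction is unknown.

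**Figure D3:**
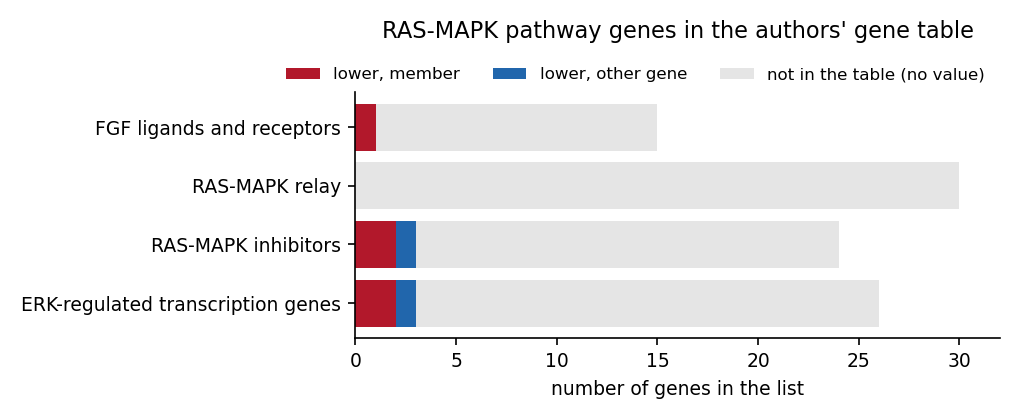
Number of genes (horizontal) in each of 4 RAS-MAPK lists, split into members lower in the knockdown (red), other genes lower (blue) and genes not in the authors' gene table (grey). The grey part makes up 14 of 15, 30 of 30, 21 of 24 and 23 of 26 genes, and no list had a higher gene. The red genes were chosen with their direction known, and 2.81% of all named mRNA genes were in the table.

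Transcripts of the other pathway genes had far larger fold changes than those of the members. There were 5, from FGFR4, RASGRP1, MRAS, BRAF and RPS6KA3, and the smallest absolute change among them was 8.38 on the log2 scale. Changes of 6 or more made up 79.1% of the transcript table. FGFR4 (NM_002011.4) was at -9.15 (Q = 0.00253), RASGRP1, a RAS activator, at -8.40 (Q = 0.0281) and the RAS relative MRAS at -8.38 (Q = 0.0323) in the authors' deposited transcript table. BRAF (XR_001744858.1) was at 9.59 (Q = 0.000753) and RPS6KA3, an ERK-activated kinase, at 9.07 (Q = 0.00253). None of the 5 genes was in the gene table, and without levels a fold change of this size cannot be read as an amount.

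The neighbourhood of FGFR3 was examined because t(4;14) acts on this region. The gene order used is that of the reference genome. Which genes lie beside FGFR3 in LP-1 after the translocation was not examined. Among 20 protein-coding neighbours, 10 on each side in the RefSeq order, 1 was in the authors' gene table: TMEM129, a ubiquitin ligase gene 2 places away, at 0.682 times control (-0.55 on the log2 scale, Q = 0.0173). NSD2, the other target of the translocation, was not in the gene table, and its 3 listed transcripts went both ways in the authors' deposited transcript table. NM_133335.3 was at -7.41 on the log2 scale (Q = 0.000365), and 2 predicted forms were at 10.69 (Q = 2.21e-07) and 23.89 (Q = 1.32e-08). Without levels, changes of this size cannot be read as amounts. Of the other genes recurrently translocated in myeloma, MAF was higher, at 1.34 times control (0.42, Q = 0.0265), and CCND1, CCND2, CCND3 and MYC had no value. Around the other members, 8 of 80 neighbours were in the table, 5 lower and 3 higher, where 2.81% of all named mRNA genes were in the table and 47.2% of its genes were lower. SPRED2 accounted for 4 of these 8. The difference from the background was not tested.

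Base composition moved with direction in this table and is given beside the members. Median transcript GC content was 57.5% over lower and 46.7% over higher genes, for the 676 of 684 genes with a value. FGFR3 (62%) and ETV4 (59.9%) fell in the top quartile of GC content, where 85.2% of 169 genes were lower (exact 95% binomial interval 78.9% to 90.2%, counting error over genes only). DUSP4 (53.9%), SPRED2 (55.2%) and ETV5 (50.8%) were in the third quartile, with 52.7% lower (44.9% to 60.4%). By the GC content of the longest coding transcript, an alternative chosen after seeing the data, SPRED2 and ETV5 moved to the second quartile, where 27.8% were lower. ETV1, at 41.9% GC, lay in the lowest quartile, where 24.3% were lower (18% to 31.4%). The targeted gene HDGFL2, at 63.2% GC, was in the top quartile with FGFR3 and ETV4. The part of base composition in the values of the members and HDGFL2 was not tested.

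**Figure D4:**
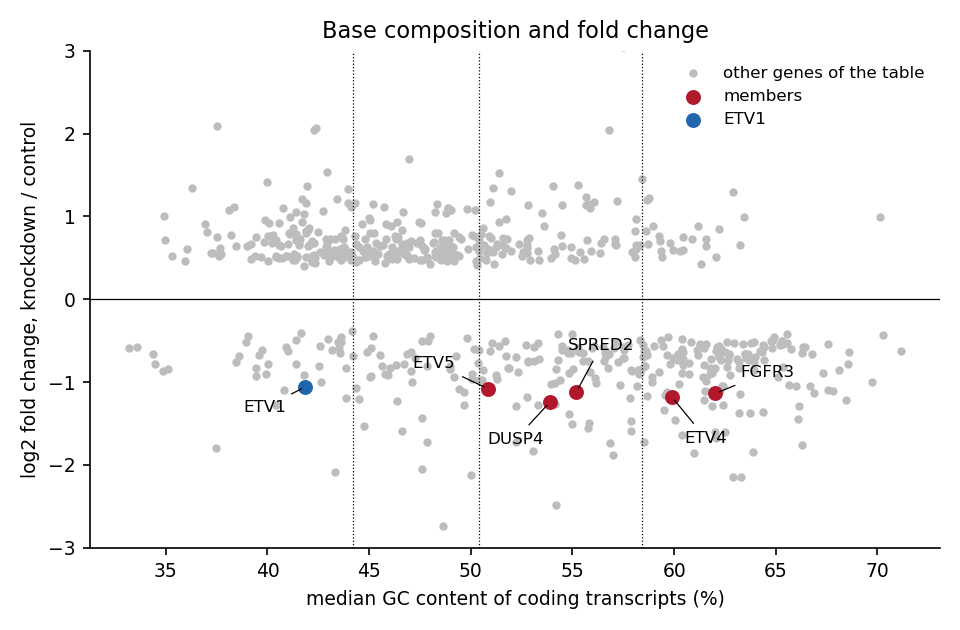
Median GC content of a gene's coding transcripts (horizontal, percent) against log2 fold change (vertical), with dotted lines at the quartiles of GC content and 7 genes beyond the vertical range not drawn. FGFR3 and ETV4 lie right of the third line among mostly lower genes, and ETV1 (blue) lies left of the first line, where most genes were higher.

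Sequence shared with other genes was small for every member. The percent of 31-nucleotide words of the longest coding transcript that also occur in another gene of GENCODE 29 was 0.386% for FGFR3, 0.201% for DUSP4, 1.21% for ETV4, 3.41% for ETV5 and 0% for SPRED2. ETV4 and ETV5 shared 3 words with each other and none with ETV1. Exons of ETV4 overlap those of DHX8 on the opposite strand, and exons of ETV5 overlap those of DGKG on the same strand. Neither DHX8 nor DGKG was in the authors' gene table, and whether their counting used strand is not given in the sources used here.

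The identity of the cells could not be checked from fold changes alone, so the marker values below are a description. Of 13 plasma cell markers, 4 were in the authors' gene table and all 4 were lower. On the log2 scale TNFRSF13B was at -0.74 (Q = 0.0293) and IRF4 at -0.63 (Q = 0.00323) in the authors' deposited table. TNFRSF17, the gene of BCMA, was at -0.48 (Q = 0.0392) and SDC1, the gene of CD138, at -0.45 (Q = 0.0446). Only IRF4 had a Q value under 0.01. Of all named mRNA genes 2.81% were in the table, and 47.2% of the table's genes were lower. Among transcripts IRF4 went both ways, with NM_002460.3 at -1.04 (Q = 0.0108) and XM_006715090.2 at 1.93 (Q = 0.000426) in the authors' deposited transcript table. Of 19 markers of other cell types none was in the gene table. However, 1 predicted transcript of PECAM1, listed here as an endothelial and platelet marker, was higher in the transcript table. It was at 8.64 on the log2 scale (XM_017024739.1, Q = 0.0261), and changes of 6 or more made up 79.1% of that table. Levels, which would show whether a marker is expressed, were not analysed here. The part of these plasma cell markers in the members' values was not tested.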

How the data were processed

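RNA-seq libraries of LP-1 cells (2 HRP2 knockdown, 2 non-target control) followed BGI's library protocols, as the labels state. BWA, Bowtie2, RSEM and hg19 appear in the submitters' processing notes without roles. How libraries were normalized, which test gave Q, and depth: not given in the sources used here. The log2 fold changes (knockdown over control by the stems of the titles) and Q values were used as deposited by the authors. Every deposited Q value was under 0.05 (largest 0.0495 for genes, 0.0497 for transcripts). Another 2 deposited tables hold names and RNA types. The planned edgeR or limma fit was not run, since it needs a value per library and none was used.

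The members and gene lists were chosen with earlier results of these data known. Named genes were the members, HDGFL2, list genes and FGFR3 neighbours with a value, and the 2 genes on either side of FGFR3 in log2 fold change; pathway genes without a value were named as examples after the table was seen. Python 3.11.15, pandas 2.3.3 and scipy 1.17.1 were used, with GENCODE 29 for GC content and shared words and RefSeq GRCh38.p14 for names, neighbours and upstream windows. Counting code was tested on simulated data. Some genes of the lists are counted but not reported by name here.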

Additional observations from a re-analysis of the deposited data

How the results depend on the processing

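No paired analysis was possible because no value per library was used, and for the same reason no replicate could be left out and no other normalization, filter or pseudocount was run. With a Q value under 0.01, or a change of 1 or more on the log2 scale, the 5 members and their median stayed as given. This outcome was fixed in advance, since the largest Q value of a member was 0.00778 and every member was below -1. By transcripts, 2 members were lower, with a median of -1.31, and the other 3 had no transcript in the table. Leaving out 1 member at a time gave medians of -1.15 (without FGFR3), -1.13 (without DUSP4 or ETV4) and -1.16 (without ETV5 or SPRED2). Of the other pathway genes, 0 were lower at a Q value under 0.01 and 1 at a change of 1 or more, instead of 2. By transcripts 3 were lower and 2 higher, all from genes outside the gene table and with changes of 8.38 or more. With 10 bins of GC content instead of quartiles, 61.2% of genes were lower around DUSP4 and SPRED2, 63.2% around ETV4 and 41.2% around ETV5. With the GC content of the longest coding transcript, an alternative chosen after seeing the data, the share was 27.8% around ETV5 and SPRED2. The missing standard errors and depth limit every value, since the precision of a fold change cannot be given.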

Other observations

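Some further genes of this signalling system were in the authors' deposited gene table outside the lists, and were noticed after their values were seen. DAB2IP, a RAS GTPase-activating protein, had a log2 fold change of -1.29 (Q = 0.0271), so that with RASA2 2 of 10 genes of this family were in the table, both lower. IRS2, an adaptor of insulin and IGF1 receptors, was at -1.17 (Q = 0.0286). Of the 7 FOS and JUN genes, the AP-1 factors FOSL2, at -1.28 (Q = 0.000388), and JUND, at 0.499 times the control level (Q = 3.49e-06), were in the authors' deposited table. Beside these counts, 2.81% of all mRNA genes the authors name were in the table, and 47.2% of the table's genes were lower; the families were picked for genes already seen in it, so nothing is read from their shares.

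Genes of further signalling families were mostly absent from the gene table. DUSP4 was the only 1 of 24 genes with a DUSP symbol in it, and SPRED2 the only 1 of the 7 SPRY and SPRED genes. None of 13 MAPK, 7 MAP2K or 18 MAP3K genes had a value. Since only 2.81% of all named mRNA genes were in the table, nothing is read from these absences.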
